A study of Mus musculus with 4 samples.

Results

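The genes described here encode proteins of the cytosolic ribosome or are paralogs of such genes. They were chosen by symbol, as *Rpl* or *Rps* followed by a number and at most a single a, x, y or l and a last digit, together with *Rplp0*, *Rplp1*, *Rplp2* and *Rpsa* and without the *Rps6k* kinase genes, and 84 of the 24347 gene rows met this rule. Of the 84 members, 77 are core genes, 46 of the large and 31 of the small subunit, and 7 are paralogs of core genes, of which 1, *Rps4l*, is annotated as a pseudogene. Mouse embryonic stem cells (mESCs) had been left to differentiate without LIF as embryoid bodies (EBs), which are free-floating clumps of cells, and the bulk RNA of day 3 EBs was sequenced. EBs of WT mESCs (2 samples, WT 1 and WT 2) were compared with EBs of mESCs that lack the promoter of *Gm11549*, the gene of the micropeptide NEMEP (2 samples, promoter KO 1 and promoter KO 2). Both genotypes have the strain label 129/Ola, were grown in the same serum medium and had no other treatment. The promoter KO lines were made with CRISPR/Cas9 and grown from single sorted cells, and it is not clear from the labels if the 2 promoter KO samples come from different lines or from separate cultures. The study calls the samples biologically independent without saying what was repeated, and p-values measure only the spread between these samples.

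Values are in FPKM, which divides the fragments of a gene by its transcript length and by the number of fragments mapped. Their sums were 677777 and 696928 for WT 1 and WT 2, and 673951 and 679870 for promoter KO 1 and 2. The depth, estimated from the value that 1 fragment gives in genes with a single annotated transcript, came to 24600000 and 21900000 fragments for WT 1 and WT 2, and to 21500000 and 19900000 for promoter KO 1 and 2. The targeted gene, *Gm11549*, had 0.750 and 0.522 FPKM in WT, and it was listed at 0 and 0.0659 in promoter KO, both below WT. All of these values are under 1 FPKM, too low for the filter used below, and the gene was not tested.

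Ribosomal proteins are needed in matched amounts, because nearly all of them take part in every ribosome, and their genes are among the most strongly expressed in dividing cells. Many of their mRNAs begin with a C followed by a run of pyrimidines, the 5′ terminal oligopyrimidine (TOP) tract, through which mTORC1 and LARP1 control their translation together. Their short, abundant mRNAs have also been copied back into the genome many times, so that the mouse genome holds many processed pseudogenes and some retrogenes that resemble them closely.

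Ribosomal protein mRNAs made up a large part of the transcriptome of these EBs. By mean FPKM over the 4 samples, 8 of the 10 highest rows were members, as were 36 of the 50 highest and 64 of the 100 highest. The median member was at 1941 FPKM, against 11.8 FPKM for the genes tested, and 66 of the 84 members had a mean above 1000 FPKM. The core members were not at equal levels, as their quartiles were 1253 and 3818 FPKM.

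The member with the highest mean was *Rpl41*, which encodes a very short, basic protein of the large subunit. It had 9298 and 10247 FPKM in WT against 7742 and 8485 in promoter KO. Next came *Rplp1*, of the stalk that recruits translation factors, with 8236 and 7998 FPKM in WT against 7499.9 and 8374 in promoter KO. *Rps26*, whose protein lies where mRNA leaves the ribosome, had 6671 and 6879 FPKM in WT against 5723 and 6497 in promoter KO. The genotypes overlapped for *Rplp1* and did not overlap for *Rpl41* and *Rps26*. *Rps18*, of the head of the small subunit, had 5526 and 5946 FPKM in WT against 5030.3 and 5176 in promoter KO. *Rpl36*, of the large subunit, was at 4664 and 5023 FPKM in WT, and its promoter KO samples lay on both sides of these values, at 3810.3 and 6470.2 FPKM.

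At the other end, several core members had values far below those of their partners in the ribosome. *Rpl29*, a core member of the large subunit, was listed at 0.253, 1.03, 0.291 and 0 FPKM in WT 1, WT 2, promoter KO 1 and promoter KO 2, values that correspond to between 0 and 14.6 fragments at its longest annotated transcript. It has 48 near-identical copies, that is, other annotated genes whose transcripts match it at 95% of positions or more over 200 bases or more. *Rps27*, of the small subunit, was at 9.97, 44.1, 7.60 and 6.51 FPKM. A retrogene with a row of its own, *Rps27rt*, which is 96.2% identical to it over 341 bases, had 4948 and 5120.1 FPKM in WT against 4911 and 5913 in promoter KO. How reads were divided between the pair was not tested, so the value of *Rps27* alone is uncertain.

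A few other low members were singled out after their values were seen, some with a more abundant copy row and some without. *Rpl26*, at the exit of the peptide tunnel, had 324 and 299 FPKM in WT against 280.4 and 311 in promoter KO, while its copy *Gm15772* had 2257 and 2331 FPKM in WT against 1887 and 2159 in promoter KO. *Rpl30*, of the large subunit, had 106 and 108 FPKM in WT against 115 and 90.6 in promoter KO, below its copy *Gm12191* with 320.4 and 334 FPKM in WT against 152 and 292 in promoter KO. *Rpl34*, also of the large subunit, stayed between 31.3 and 38.9 FPKM in the 4 samples, and its copy *Rpl34-ps1* was near 0. In all, 76 of the 84 members have at least 1 near-identical copy, 14 have a copy with its own row, and 8 have none. Low values were thus found with and without an expressed copy row.

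The number of copies alone did not order the levels. The 8 members without a copy had a median of 1899.6 FPKM, the 38 with 1 to 5 copies 2410.3 FPKM, the 31 with 6 to 15 copies 1826 FPKM and the 7 with 16 to 61 copies 1177 FPKM. The ranges were wide in each class, from 0.371 to 4224 FPKM for members without a copy and from 0.394 to 4682 FPKM for those with the most.

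**Figure D1:**
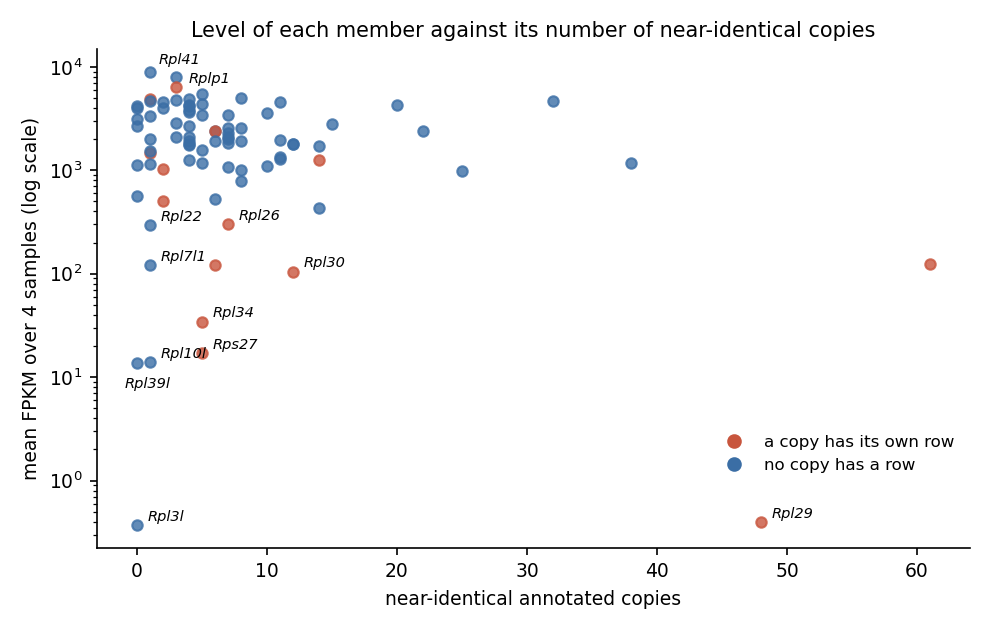
Mean FPKM over the 4 samples (log scale) of each of the 84 members against its number of near-identical annotated copies, with the members whose copy has a row of its own in red. Most members lie above 1000 FPKM, and the labelled low ones include paralogs and core members such as *Rpl29*, *Rps27* and *Rpl34*.

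What the members share in sequence was looked at around their transcription starts, since the TOP tract begins at the first base of the mRNA. RefSeq (GRCm38.p6) gives a start for 63 of the 84 members. On the strand of the gene, 29 of these 63 (46%) had a run of C and T of at least 5 bases that begins with a C within 5 bases of the annotated start, against 5718 of all 27025 genes with a start (21.2%). The 30 bases around the start are shown for 2 members with a tract and a high level, chosen after their values were seen (*Rps18*, *Rpl28*), for *Rps27* with its paralog *Rps27l*, for *Rpl39* with its paralog *Rpl39l*, and for the paralogs *Rpl22l1* and *Rpl10l*, whose values in promoter KO stood apart from those of most members. The annotated first base follows the first 15 bases, and capitals mark the longest such run. The windows are chr17:33955651-33955680 for *Rps18* (minus strand), chr7:4792950-4792979 for *Rpl28* (plus), chr3:90213634-90213663 for *Rps27* (minus), chr9:66946071-66946100 for *Rps27l* (plus), chrX:37085208-37085237 for *Rpl39* (minus), chr16:10170213-10170242 for *Rpl39l* (plus), chr3:28805493-28805522 for *Rpl22l1* (plus) and chr12:66284387-66284416 for *Rpl10l* (minus).
Rps18: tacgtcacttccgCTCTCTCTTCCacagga
Rpl28: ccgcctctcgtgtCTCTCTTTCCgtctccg
Rps27: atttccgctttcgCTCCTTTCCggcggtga
Rps27l: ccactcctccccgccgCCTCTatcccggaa
Rpl39: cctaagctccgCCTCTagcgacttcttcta
Rpl39l: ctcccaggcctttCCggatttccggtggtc
Rpl22l1: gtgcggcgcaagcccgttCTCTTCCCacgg
Rpl10l: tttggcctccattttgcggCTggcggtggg
The runs of *Rps18*, *Rpl28* and *Rps27* are 11, 10 and 9 bases long and cross the annotated start. *Rpl22l1* has a run of 8 bases and *Rps27l* and *Rpl39* have runs of 5 bases, whereas the longest runs of *Rpl39l* and *Rpl10l* that begin within 5 bases of the start are 2 bases. The run of pyrimidines that ends just before the start of *Rpl39l* begins farther upstream and was not counted whole. A run near an annotated start is a description of these letters, as the annotated start can differ from the start used in these cells.

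The first comparison asked whether the ribosomal protein genes as a whole took the same part of the transcriptome in both genotypes. Together the 84 members held 29.5% and 30.7% of all FPKM in WT 1 and WT 2, against 27.4% and 28.7% in promoter KO 1 and 2. Both shares of promoter KO were thus below both of WT, with 30.1% ± 0.894 in WT and 28.1% ± 0.954 in promoter KO (SD, n = 2 each). The difference between the means was −2.04 percentage points, a ratio of 0.932, and it was larger than the SD of either genotype. The smallest two-sided p of an exact permutation test of 2 samples against 2 is 0.333, so this test of the share cannot pass 0.05. A share of FPKM counts transcripts per length and is not a share of the reads, which would be smaller for short mRNAs. The total behind the share held 0 rows of mitochondrially encoded genes.

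In bulk RNA, fewer cells with many ribosomal protein transcripts and fewer such transcripts per cell cannot be told apart. Samples of the same genotype lay farther apart in this share than the nearest samples of different genotype, WT 1 and promoter KO 2. Of the 82 tested members, 71 had a higher value in WT 2 than in WT 1, and 65 had a higher value in promoter KO 2 than in promoter KO 1, against 5867 and 6389 of the 11941 tested genes. The median ratio of the second to the first sample was 1.06 in WT and 1.04 in promoter KO. Members therefore moved together between samples of the same genotype, and counts of members are not counts of independent observations.

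**Figure D2:**
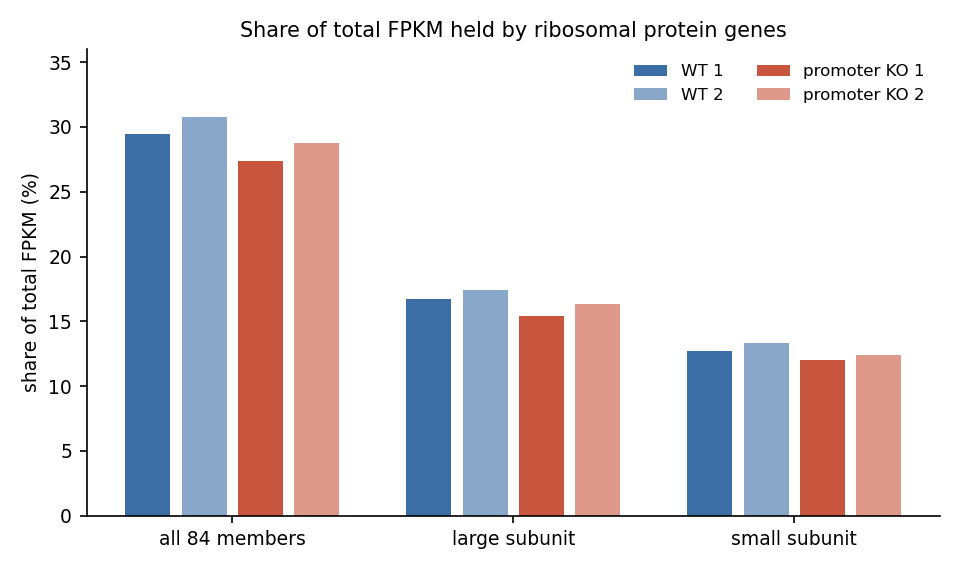
Share of total FPKM (%) held by all 84 members and by those of the large and small subunit, with 1 bar per sample. For all members the promoter KO bars reach 27.4% and 28.7% and the WT bars 29.5% and 30.7%, and both subunits show the same order.

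The large subunit held 16.7% and 17.4% of FPKM in WT, against 15.4% and 16.4% in promoter KO. The small subunit held 12.7% and 13.3% in WT and 12.0% and 12.4% in promoter KO. In both subunits the genotypes did not overlap. The ratio of the summed FPKM of large to small core members was 1.33 and 1.32 in WT and 1.31 and 1.34 in promoter KO, so that the balance of the subunits overlapped between the genotypes. The 5 highest members alone overlapped too, with 5.07% and 5.18% in WT and 4.42% and 5.15% in promoter KO.

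The second comparison tested each gene. Genes that reached 1 FPKM in 2 or more of the 4 samples were tested with limma on log2(FPKM + 1), a scale that understates the change of genes with low values, and 82 of the 84 members passed this filter, all but *Rpl29* and *Rpl3l*. At a Benjamini-Hochberg adjusted p under 0.05 over all 11941 tested genes, limma called 0 members lower and 0 members higher in promoter KO, where it called 1.89% of all tested genes lower and 1.68% higher. At an unadjusted p under 0.05, 18 members were lower and 4 were higher, against 15.6% and 15.0% of all tested genes. The 18 are 22.0% of the tested members, and this share was not tested against that of all genes.

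Most of the small differences pointed the same way. The promoter KO pair lay entirely below the WT pair in 56 of the 82 tested members and entirely above it in 6, against 32.4% and 32.9% of all tested genes, and 20 members overlapped. The log2 fold change (promoter KO minus WT) was negative in 70 members and positive in 12, with a median of −0.12, against 0.0042 over all tested genes. The median was negative under each of the other scalings tried, and under quantile normalization, where the highest rows receive equal values, 59 of the 82 were negative. The differences were mostly bounded, as the 95% confidence interval lay between −0.5 and 0.5 in 70 of the 82 members and between −1 and 1 in 77.

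Most core members and most paralogs lay on different sides of 0. Of the 76 tested core members, 69 had a negative log2 fold change (58 under quantile normalization). The medians were −0.12 in the large and −0.14 in the small subunit. Under quantile normalization they were −0.075 and −0.065, in the other order. Of the core members 55 lay below WT in both promoter KO samples, against 32.4% of all tested genes. The exception among core members that lay above WT in both, named after its values were seen, was *Rps21*, of the small subunit, with 4326 and 4688 FPKM in WT against 4792 and 4787 in promoter KO. Of the 6 tested paralogs, 5 had a positive log2 fold change and lay above WT in both promoter KO samples, and 1, *Rpl22l1*, lay below. Neither group held a gene that limma called at an adjusted p under 0.05. At an unadjusted p under 0.05, 17 core members were lower and 0 higher, and 1 paralog was lower and 4 were higher. Of all tested genes 15.6% were lower and 15.0% higher. The difference between core members and paralogs was not tested.

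**Figure D3:**
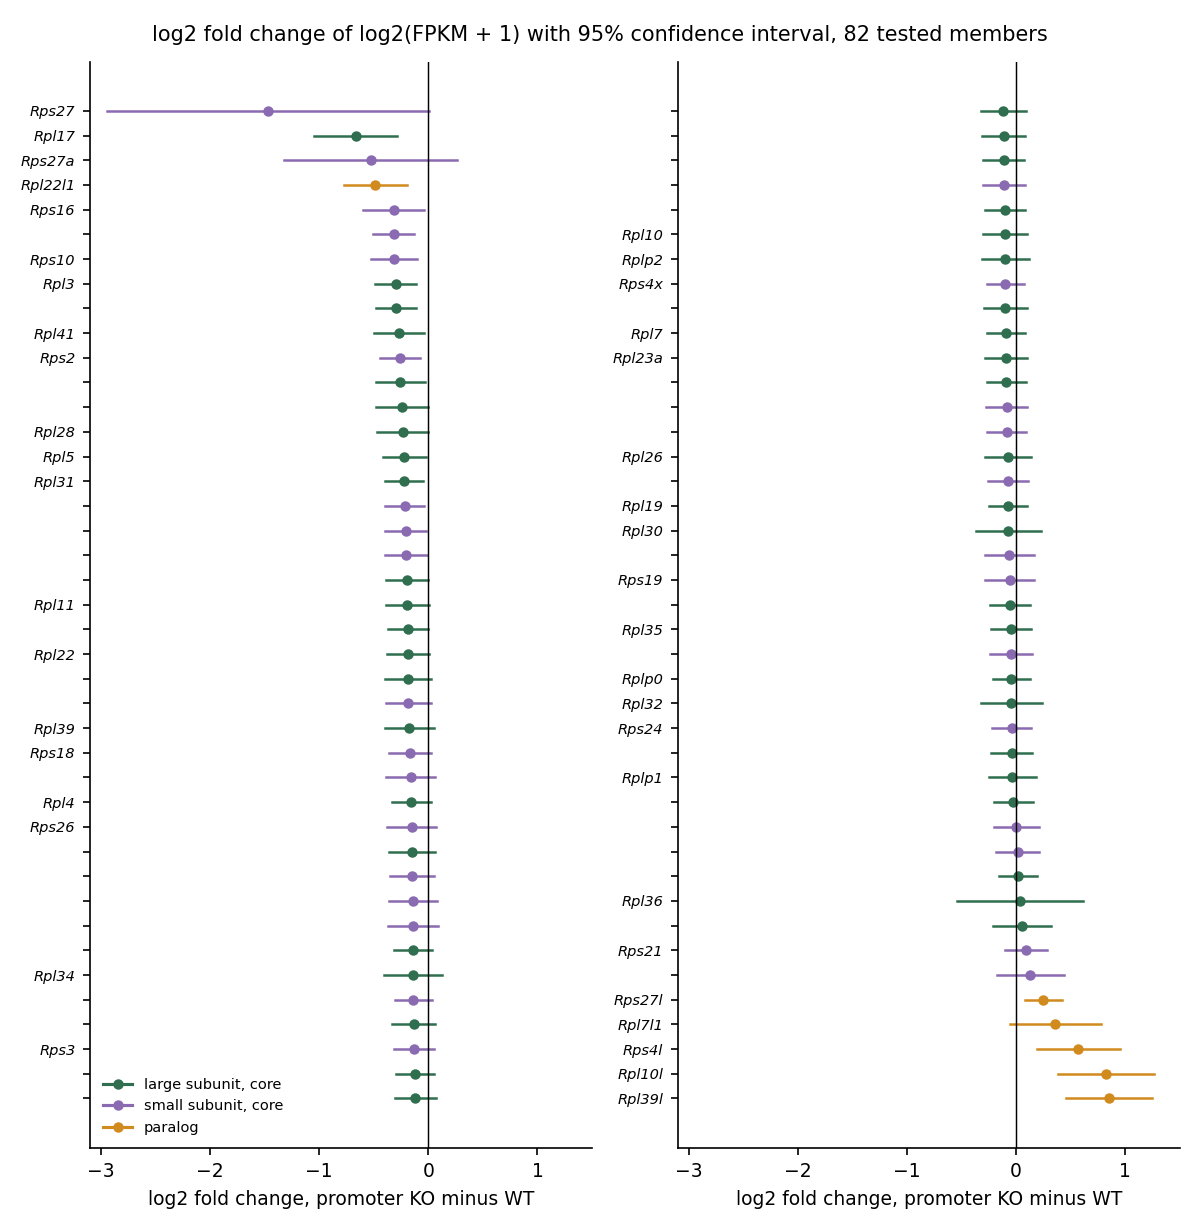
log2 fold change of log2(FPKM + 1), promoter KO minus WT, with its 95% confidence interval (limma) for each of the 82 tested members, ordered from lowest to highest and labelled where the text describes the gene. Most core members of the large (green) and small (purple) subunit lie slightly below 0, and 5 of the 6 tested paralogs (orange) stand at the upper end.

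Members with and without a pyrimidine run near the start had similar medians. The median log2 fold change was −0.14 in the 29 members with a run of at least 5 bases, −0.12 in the 33 tested members with a start and no such run, and −0.09 in the 20 tested members without a start in RefSeq. Both promoter KO values were under both WT values in 21, 22 and 13 of them, against 32.4% of all tested genes.

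Of 5 groups of members by role, the P stalk, which recruits the GTPases of translation, had the median nearest to 0. *Rplp0*, its base, had 1617 and 1586 FPKM in WT against 1578 and 1532 in promoter KO (log2 fold change −0.04). *Rplp2*, whose protein pairs with that of *Rplp1*, had 4850.2 and 5193 FPKM in WT against 4459 and 4929 in promoter KO (log2 fold change −0.10), and the genotypes overlapped. All 3 stalk genes had confidence intervals between −0.5 and 0.5, and their median was −0.04, with *Rplp1* at 0 under quantile normalization.

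*Rpl5* and *Rpl11* encode the proteins that bind 5S rRNA and, when ribosome assembly is disturbed, MDM2. *Rpl5* had 813 and 878 FPKM in WT against 699.5 and 751 in promoter KO. *Rpl11* had 2581 and 2841 FPKM in WT against 2356 and 2377 in promoter KO. Both genes lay below WT in both promoter KO samples, with log2 fold changes of −0.22 and −0.19 (limma adjusted p = 0.134 and 0.166), which do not pass 0.05.

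The 8 members around the exit of the peptide tunnel (*Rpl4*, *Rpl17*, *Rpl19*, *Rpl23a*, *Rpl26*, *Rpl31*, *Rpl35* and *Rpl39*) all had negative log2 fold changes, with a median of −0.12, and in 7 of them the genotypes did not overlap. Under quantile normalization *Rpl35* was positive and the median was −0.037. *Rpl31* had 1330.4 and 1386 FPKM in WT against 1149 and 1182 in promoter KO (log2 fold change −0.22 with a standard error of 0.07, limma adjusted p = 0.109). At the mRNA entry of the small subunit, *Rps2* had 5100.4 and 5111 FPKM in WT against 4158 and 4357 in promoter KO. Its log2 fold change was −0.26, with a standard error of 0.07 and a limma adjusted p of 0.0866, and both promoter KO samples were below WT. *Rps3*, beside it at the entry, had 1550.1 and 1679 FPKM in WT against 1467 and 1482 in promoter KO (log2 fold change −0.13).

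The 10 members of the list of genes mutated in Diamond-Blackfan anemia, an inherited failure of red cell production, had negative log2 fold changes from −0.32 to −0.04, with a median of −0.13, although under quantile normalization *Rps19* and *Rps24* were positive and *Rps26* was at 0. In 7 of the 10 the promoter KO values were both under the WT values, against 32.4% of all tested genes. *Rps19*, the gene most often mutated in this disease, had 2278 and 2594 FPKM in WT against 2263 and 2407 in promoter KO, and the genotypes overlapped. *Rps10*, with the largest difference of the 10, had 2188 and 2446 FPKM in WT against 1812 and 1906 in promoter KO (log2 fold change −0.32 with a standard error of 0.09, limma adjusted p = 0.0802). Of the 10, limma called 0 at an adjusted p under 0.05. Lower values at an unadjusted p under 0.05 were found for 2, which is near the 15.6% of all tested genes.

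Of the 5 lowest log2 fold changes, the lowest was that of *Rps27*, in which WT 2 stood far above the other samples and both promoter KO samples were below WT. It was −1.47, with a standard error of 0.60 and a limma adjusted p of 0.164, and the means were 27.0 ± 24.1 FPKM for WT against 7.05 ± 0.773 for promoter KO (SD over 2 samples). The log2 fold change was −0.45 without WT 2 and −2.49 without WT 1. Summed with *Rps27rt*, the pair had 4958 and 5164 FPKM in WT against 4919 and 5919.8 in promoter KO, which overlapped. The sum of the copies thus did not share the direction of *Rps27* alone, with a difference of 0.09 on the log2 scale. For *Rpl30* with *Gm12191* the sums were 426 and 442 FPKM in WT against 266 and 383 in promoter KO, a difference of −0.44. For *Rpl26* with *Gm15772* they were 2581 and 2630 FPKM in WT against 2167 and 2470 in promoter KO, a difference of −0.17. In both pairs the member alone overlapped and both promoter KO sums lay below both WT sums. Promoter KO 1 had the lower sum in each pair, so the differences lean on that sample. *Rpl14* alone overlapped as well, and its sum with *Rpl14-ps1* overlapped too, with a difference of 0.03.

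*Rpl17*, whose protein lines the tunnel exit, had 1016 and 1413 FPKM in WT against 739 and 769.9 in promoter KO. It has 25 near-identical copies, none with a row of its own, and its log2 fold change was −0.67, with a standard error of 0.15 and a limma adjusted p of 0.0652. *Rps27a*, which encodes ubiquitin fused to a protein of the small subunit, had 1309.8 and 1193 FPKM in WT against 594 and 1263 in promoter KO. Its log2 fold change of −0.53 (limma adjusted p = 0.309), with 1 of 2 promoter KO samples below both WT samples, was 0.0144 without promoter KO 1. *Rps16*, of the small subunit, had 2854 and 3542 FPKM in WT against 2537 and 2568 in promoter KO (log2 fold change −0.32 with a standard error of 0.11, limma adjusted p = 0.133). In *Rps16* and *Rpl17* both promoter KO samples were below WT, and the WT samples differed more from each other than the promoter KO samples did. Without WT 2 or WT 1, the log2 fold change was −0.16 or −0.47 for *Rps16* and −0.43 or −0.90 for *Rpl17*.

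The paralog among these 5 was *Rpl22l1*, which can take the place of *Rpl22* in the ribosome and whose expression the protein of *Rpl22* restrains. It had 560.2 and 627 FPKM in WT against 382 and 469 in promoter KO, and its log2 fold change was −0.49, with a standard error of 0.12 and a limma adjusted p of 0.0693. *Rpl22* itself had 301 and 328 FPKM in WT against 278 and 274 in promoter KO (log2 fold change −0.19). Per length, *Rpl22l1* amounted to 186% and 191% of *Rpl22* in WT, against 137% and 171% in promoter KO, so that the paralog exceeded its parent in all 4 samples, and both genes were below WT in both promoter KO samples.

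The 5 highest log2 fold changes were all in paralogs. *Rpl39l*, known for a variant tunnel protein in male germ cells, had 10.8 and 8.37 FPKM in WT against 19.7 and 16.3 in promoter KO. Both promoter KO samples were above WT, and the ratio of the means was 1.88. The log2 fold change was 0.85, with a standard error of 0.16 and a limma adjusted p of 0.0509, which does not pass 0.05, although limma called *Rpl39l* higher when all values were rescaled to an equal sum or on the rows outside the members and the 10 highest. It has no near-identical copy, and its level was between 0.244% and 0.714% of that of *Rpl39*, which had a log2 fold change of −0.17. *Rpl10l*, a gene without introns that stands in for the X-linked *Rpl10* in male meiosis, had 9.36 and 9.91 FPKM in WT against 21.5 and 14.9 in promoter KO. Its log2 fold change was 0.83, with a standard error of 0.18 and a limma adjusted p of 0.0586, while *Rpl10* had a log2 fold change of −0.10. The promoter KO samples were both above WT for *Rpl10l* and both below WT for *Rpl10*, whose log2 fold change lay between −0.178 and −0.0251 with a sample left out.

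*Rps4l*, a relative of the X-linked *Rps4x*, had 447 and 451 FPKM in WT against 788 and 563 in promoter KO (log2 fold change 0.57 with a standard error of 0.16, limma adjusted p = 0.0805). It was 0.33 without promoter KO 1 and 0.81 without promoter KO 2. The level of *Rps4l* amounted to 23.9% and 23.6% of *Rps4x* in WT and to 45.1% and 31.6% in promoter KO, where *Rps4x* had a log2 fold change of −0.10. GENCODE M21 lists *Rps4l* as a transcribed processed pseudogene on chromosome 6 (148354656 to 148355598, plus strand, GRCm38). The 550 tested genes of chromosome 6 had a median log2 fold change of 0.13, against medians from −0.04 to 0.04 on the other chromosomes, and its part in the value of *Rps4l* was not tested. *Rpl32*, the other member on chromosome 6, had a log2 fold change of −0.04.

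*Rpl7l1* had 103 and 108 FPKM in WT against 113 and 163 in promoter KO (log2 fold change 0.36 with a standard error of 0.17, limma adjusted p = 0.210). The value was 0.62 without promoter KO 1 and 0.0945 without promoter KO 2, while the log2 fold change of *Rpl7* was −0.09 and turned positive under quantile normalization. *Rps27l*, a target of p53, had 1028 and 1029 FPKM in WT against 1249.6 and 1198 in promoter KO. Both promoter KO samples were above WT, with a log2 fold change of 0.25, a standard error of 0.07 and a limma adjusted p of 0.0842. *Rpl3l*, which takes the place of *Rpl3* in heart and skeletal muscle, was below the filter with 0.315 and 0.196 FPKM in WT against 0.601 and 0.371 in promoter KO, between 5.05 and 15.2 fragments at its longest transcript. The parent *Rpl3* had 1066 and 1146 FPKM in WT against 873 and 923 in promoter KO (log2 fold change −0.30 with a standard error of 0.08, limma adjusted p = 0.0740). All 7 parent genes had negative log2 fold changes, apart from *Rpl7* under quantile normalization, and their genotypes did not overlap. Of all tested genes, 32.4% likewise lay below WT in both promoter KO samples.

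**Figure D4:**
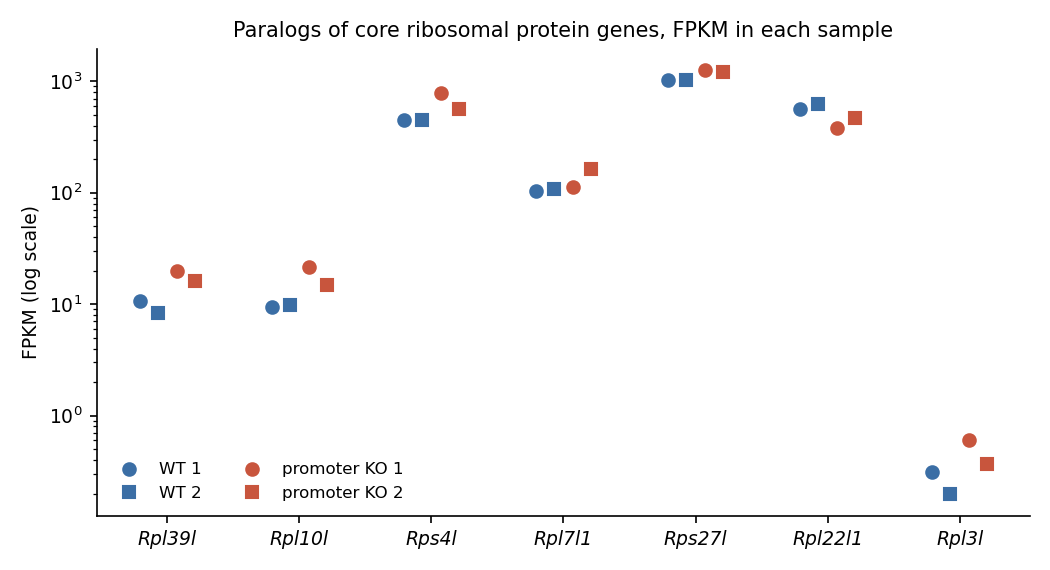
FPKM (log scale) of the 7 paralogs in each sample, with WT in blue, promoter KO in red, sample 1 as a circle and sample 2 as a square. In 6 of the 7 both promoter KO samples lie above both WT samples, and in *Rpl22l1* they lie below.

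Ribosomal protein genes whose symbols the rule does not match had mixed values. *Fau*, which encodes a small subunit protein fused to a ubiquitin-like domain, had 3304 and 3521 FPKM in WT against 2917 and 3063 in promoter KO (log2 fold change −0.19). *Gnb2l1* (*Rack1*), a scaffold on the small subunit, had 2047 and 2121 FPKM in WT against 1807 and 1719.5 in promoter KO (log2 fold change −0.24). *Rpl36al*, a paralog of *Rpl36a*, had 1261 and 1205 FPKM in WT against 1350.0 and 1341 in promoter KO (log2 fold change 0.13). The genotypes overlapped in none of these 3 genes.

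Other genes of the same pathway were compared by their counts and medians. In the 16 other mRNAs known to carry a TOP tract, among them elongation factors, the median log2 fold change was −0.10, close to that of the members, with 9 below and 2 above WT in both promoter KO samples. In the 50 genes of ribosome biogenesis, which process rRNA and assemble subunits, the median was 0.33, with 1 below and 44 above WT. An unadjusted p under 0.05 was found for 35 of them with higher and for 1 with lower values. Together these 50 genes held 0.745% and 0.692% of FPKM in WT and 0.947% and 0.828% in promoter KO. The median of the biogenesis genes and that of the members thus lay on opposite sides of the median of all tested genes. Single genes did not all follow, as 12 members were positive and 1 biogenesis gene was negative. The difference between the lists was not tested.

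The 15 genes of RNA polymerase I and 5S rRNA transcription had a median of 0.27, with 9 above and 2 below WT. The 31 translation factors had a median of 0.09, with 14 above and 4 below. The 13 genes of mTORC1 and of the control of TOP mRNAs had a median of 0.07, with 5 above and 2 below. The 77 mitochondrial ribosomal protein genes, whose products form the separate ribosome of mitochondria, had a median of 0.10, with 35 above and 14 below. In each of these 6 lists limma called 0 genes lower and 0 higher at an adjusted p under 0.05, and no other scaling changed the sign of a median. At an unadjusted p under 0.05, 2 other TOP mRNAs were lower and 1 was higher, 9 polymerase genes and 6 translation factors were higher and 0 were lower, 1 mTORC1 gene was lower and 1 higher, and 6 mitochondrial ribosomal protein genes were lower and 12 higher. These counts stand beside 15.6% of all tested genes lower and 15.0% higher, and those of genes that did not overlap beside 32.4% below and 32.9% above WT, and several of them are near these shares.

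**Figure D5:**
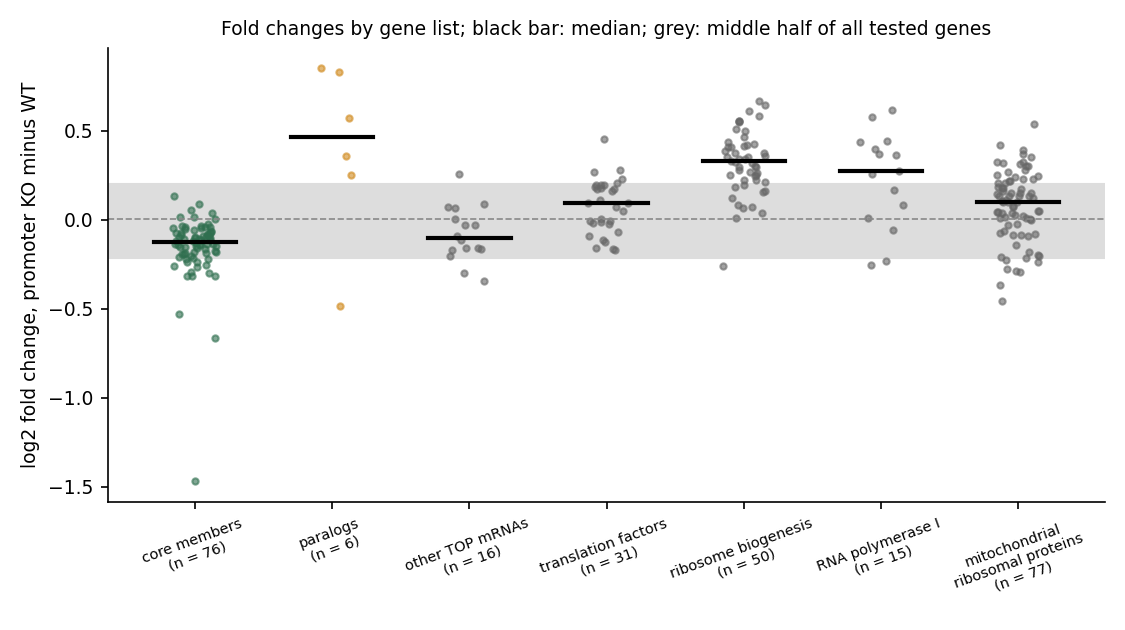
log2 fold change (promoter KO minus WT) of each tested gene in 7 lists, with the median as a black bar and the range between the quartiles of all tested genes in grey. The medians are −0.13 for core members, 0.46 for paralogs, −0.10 for other TOP mRNAs and 0.33 for ribosome biogenesis.

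Marker genes of the cell types that EBs can hold also differed between the genotypes. The labels call the samples mesendoderm derived from mESCs. The 8 mesendoderm markers summed to 777 and 1002 FPKM in WT against 148 and 314 in promoter KO, with all 8 below WT in both promoter KO samples and *T* the most abundant, and limma called 5 of them lower (*Mixl1*, *Gsc*, *Mesp1*, *Lhx1* and *Evx1*). The 8 pluripotency markers summed to 2754 and 2529.5 FPKM in WT against 4572 and 3584 in promoter KO. By mean *Pou5f1* was the most abundant, 6 lay above and 1 (*Nanog*) below WT, and 1 was called higher (*Utf1*). *Pou5f1* had 1499 and 1188 FPKM in WT against 1522 and 1545 in promoter KO, and *Dppa5a* 743 and 792 against 1833 and 1146. *Nanog* had 140 and 113 FPKM in WT against 94.1 and 98.7 in promoter KO. The 9 markers of extraembryonic endoderm summed to 64.1 and 87.2 FPKM in WT against 175 and 219 in promoter KO, with *Sparc* the most abundant and 7 above WT, of which 6 were called higher (the 5 with the largest changes were *Dab2*, *Amn*, *Ttr*, *Lama1* and *Sparc*). The EBs of both genotypes thus held transcripts of several cell types, and those of promoter KO held less of the mesendoderm markers.

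The 5 neuroectoderm markers summed to 36.4 and 29.4 FPKM in WT against 58.2 and 51.5 in promoter KO, nearly all from *Sox3*, which was the 1 marker tested and was called higher. The 4 blood markers stayed at or below 0.483 FPKM in all samples, with *Gata1* the most abundant and the globin genes *Hba-x*, *Hbb-bh1* and *Hbb-y* each listed at 0 in 3 of the 4 samples. The 4 fibroblast markers summed to between 10.6 and 17.3 FPKM, mostly *Thy1*, and these sums overlapped between the genotypes, while *Col1a1* alone lay below WT in both promoter KO samples. The part of the cell makeup in the values of the ribosomal protein genes was not tested.

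The calls depended on single samples. With WT 1 left out, the lone WT sample being assumed to vary like the promoter KO samples, limma called *Rpl17* and *Rps27* lower. With promoter KO 2 left out it called *Rpl22l1* and *Rps27a* lower and *Rpl10l* and *Rps4l* higher, and with WT 2 or promoter KO 1 left out it called 0 members, where 4 or 6 were lower and 3 or 7 higher at an unadjusted p under 0.05. Over all 11941 tested genes limma called 114 lower and 61 higher without WT 1, 248 and 238 without promoter KO 2, and 0 without WT 2 or promoter KO 1, so the 0 is not particular to the members.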

How the data were processed

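The deposited values are in FPKM, estimated by the authors with Cufflinks, in 1 file per sample with 24347 gene rows. The methods speak of RPKM, in which reads take the place of fragments, so the unit is uncertain and the depths and fragment numbers hold only if the values are FPKM. The methods name TopHat for the mapping and GENCODE M4, and the submitters' processing notes name HISAT2 2.1.0, Cufflinks and Cuffnorm with mm10, so the aligner is uncertain, as is the treatment of reads that map to several copies. The strand setting is not given in the sources used here. From these values log2(FPKM + 1) was fitted with limma 3.58.1 in R 4.3.3 by genotype with an intensity trend, over the 11941 genes that reached 1 FPKM in 2 or more samples, and p-values were adjusted over all of them by the Benjamini-Hochberg method. The share is the members' FPKM over the sum of all rows. Copies were found with BLAST 2.17.0 in GENCODE M21, and starts were read from RefSeq. The depth was estimated with fragments taken as 200 bases long, which gave the sharpest peaks (558 genes in the peaks of the 4 samples, against 242 at 0, 337 at 100 and 505 at 300 bases). The fit and the depth estimate were tested on simulated data, but no outcome is given here, so this adds no support to the values. Figures were drawn with matplotlib 3.10.9.

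Members and lists were chosen with earlier results of these data known. Named members were those with an adjusted p under 0.05 (at most 30), the 5 with the highest mean FPKM, the 5 lowest and 5 highest log2 fold changes, those below the filter, the 7 paralogs with their parents, 3 genes outside the rule and the members of 5 role groups, and from other lists the called genes, at most 5 a list by size of change. A further gene outside the rule is not reported here, and the share with such genes added was computed without it.

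Alternatives were the replicate number as a block, other scalings, pseudocounts and filters, limma without the trend, each sample left out, ratios without a pseudocount, and other members or totals for the share.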

Additional observations from a re-analysis of the deposited data

How the results depend on the processing

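Samples are numbered 1 and 2 in each genotype, and no label ties equal numbers to a shared origin. The deviations of same-numbered samples correlated at 0.0348 over the 11941 tested genes. With the number as a block (paired), limma called 7 members lower (among them *Rpl17*, *Rpl41* and *Rps2*) and 3 higher (*Rpl10l*, *Rpl39l* and *Rps4l*). Of all 11941 tested genes it called 667 lower and 535 higher with the block, against 226 and 201 without it. At an unadjusted p under 0.05, 28 members were lower with the block. Without the block limma called 0 members lower and 0 higher, with 18 lower and 4 higher at an unadjusted p. Shares of all tested genes at an unadjusted p are given here for the main fit alone. Counts of members at an unadjusted p under the alternatives are therefore not read as results about the members. Quantile normalization gave 1 member called lower (*Rps3a1*) and a median log2 fold change of −0.0654. Rescaling to an equal sum, and rescaling on rows outside the members and the 10 highest, each gave 1 member called higher (*Rpl39l*). Over all tested genes limma called 169 lower with quantiles, and 259 and 238 higher with these rescalings, so 1 of 82 members is no larger share. Over the alternatives computed for *Rpl39l*, its limma adjusted p ranged from 0.0196 (block) to 0.234 (without WT 2), and its log2 fold change from 0.683 to 1.02, higher in both promoter KO samples. The members lower at an unadjusted p numbered 11 with median centring, 7 without a filter and 7 without the trend. With core members alone, chosen after seeing the data, 0 were higher at an unadjusted p, and without the members whose copy has values of its own, also chosen then, 16 were lower and 4 higher.

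With each sample left out in turn, the members called lower ranged from 0 to 2 and those called higher from 0 to 2, the members at an unadjusted p from 4 to 16 lower and from 3 to 7 higher, the median log2 fold change from −0.165 to −0.0762, and the share difference from −2.71 to −1.37 percentage points. The cause of these changes was not tested.

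Signs of named genes turned with quantiles for *Rpl7* (0.0521), *Rpl35* (0.0784), *Rps19* (0.0529) and *Rps24* (0.057), and *Rpl41*, *Rplp1* and *Rps26* became 0, as quantiles give the highest rows equal values. With a sample left out, the log2 fold changes of 24 of the 42 named genes moved by over 1.5 times and 4 of these turned sign: *Rpl36* ranged from −0.345 to 0.419, *Rplp1* from −0.114 to 0.0451, *Rps19* from −0.153 to 0.0345 and *Rps27a* from −1.07 to 0.0144. Among those that kept their sign, *Rpl26* ranged from −0.15 to −0.000605, *Rplp2* from −0.171 to −0.0262 and *Rpl39* from −0.266 to −0.0828. The share difference kept its sign and stayed between −2.12 and −1.70 under the other totals and members, which included 2 choices made after seeing the data, the rows of near-identical copies added and *Rpl36* and *Rps27a* removed. Leaving out mitochondrially encoded genes could not change the share, as 0 rows of that kind were used, so this is no check of it. The values of *Rpl29* and *Rpl3l* rest on few fragments, and the cause was not tested.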
